A study of Mus musculus with 16 samples.

Results

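Cd48 and Cd244a encode a ligand and its receptor on blood cells, and together with Slamf1 and Ly9 they are described here in tumour-associated macrophages from mouse gliomas. The 4 genes were taken by symbol from the array annotation, using probe sets annotated to 1 symbol only, and they were chosen by name with their BLZ945 and Vehicle values already known. Their differences between the agents are therefore given as a description with no test. They hold 7 of the 20393 probe sets with 1 symbol, and 4 of the 12394 genes tested. Where a gene had several probe sets, the one with the highest mean over the 16 arrays is given first.

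Macrophages were profiled on 1 array per mouse, 8 mice given BLZ945 and 8 given Vehicle, by gavage each day for 7 days. BLZ945 inhibits the kinase of the CSF-1 receptor, and the labels give its dose as 200 mg with no body weight. Vehicle was 20% captisol. Mice of both groups were Nestin-Tv-a;Ink4a/Arf-/- on a mixed background, so all lacked Ink4a/Arf and carried the avian virus receptor in Nestin-expressing cells. Tumours were started in both groups by intracranial injection of DF-1:RCAS-PDGF-B-HA cells at 5 to 6 weeks of age, and mice were assigned at random at an MRI volume of 4.5 to 40 mm3. The macrophages were sorted from the dissociated tumour as CD11b+ Gr1- cells. The BLZ945 group had 5 females and 3 males, 4 mice aged 11.29 weeks and 4 aged 13.14 weeks. The Vehicle group had 4 females and 4 males, with 4 mice aged 11.29 weeks, 2 aged 11.43 weeks and 2 aged 12.29 weeks. The labelled initial tumour volume, whose unit is not given, was 41.3 to 132.3 in 8 BLZ945 mice and 11.9 to 27.3 in 6 Vehicle mice, so this labelled value and the agent cannot be told apart. All 8 BLZ945 values, and 0 of the 6 Vehicle values, lie above the 40 mm3 given as the upper bound at assignment, so the values cannot all be volumes at assignment in mm3.

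SLAM family proteins are immunoglobulin-type surface molecules of haematopoietic cells, many of them encoded close together in the genome. Most bind a copy of themselves on another cell, but CD244 binds CD48. CD48 is anchored in the membrane by a lipid and has no cytoplasmic tail of its own, and in mice it also binds CD2 on lymphocytes. The tails of CD244, SLAMF1 and LY9 carry tyrosine motifs that bind the small adaptor SAP, encoded by Sh2d1a, or phosphatases such as SHP-1, and the signal can be activating or inhibitory depending on which partner is present. CD48 is found on most blood cells, and CD244 on natural killer cells, some T cells and myeloid cells.

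The stretches before the annotated starts of Cd48 and Cd244a are shown because these genes, close together on a chromosome, differed in opposite directions between the agents. Each line gives the 250 bases before the start, 5′ to 3′, from the RefSeq promoter table (GRCm38.p6), which held 3 of the 4 genes. Capitals mark matches to 6 motifs searched on both strands.
Cd48 (chr1:171681742-171681991, + strand): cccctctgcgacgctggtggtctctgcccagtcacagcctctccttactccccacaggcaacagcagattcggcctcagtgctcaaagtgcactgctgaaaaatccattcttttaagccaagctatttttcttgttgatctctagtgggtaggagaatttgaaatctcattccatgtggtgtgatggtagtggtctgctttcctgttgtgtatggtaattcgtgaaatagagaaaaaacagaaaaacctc
Cd244a (chr1:171558943-171559192, + strand): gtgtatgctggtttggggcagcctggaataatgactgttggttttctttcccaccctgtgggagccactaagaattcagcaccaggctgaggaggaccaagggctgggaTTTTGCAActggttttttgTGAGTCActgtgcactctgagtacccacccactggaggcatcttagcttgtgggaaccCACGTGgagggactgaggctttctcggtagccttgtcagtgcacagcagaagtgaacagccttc

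The motifs were GAGGAA (PU.1 and other ETS factors), CCGGAA (the ETS core), TGANTCA (AP-1), CACGTG (an E-box of MITF and related factors), TTGCNNAA (C/EBP) and GAAANNGAA (interferon response). The Cd244a window held 3 matches, which did not overlap. These were a C/EBP match that begins 141 bases before the start and is read on the other strand, an AP-1 match that begins 122 bases before it, and an E-box that begins 64 bases before it. Of all 32851 windows of the same length in the table, 9.56% held the C/EBP letters, 6.75% the AP-1 letters and 6.02% the E-box. The Cd48 window held 0 matches, as did that of Slamf1. Of the motifs with no match, GAGGAA was in 23.3% of all windows, the interferon letters in 7.13% and CCGGAA in 3952 of 32851 windows. A match is a string of letters and not a measured binding site.

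Cd48, the ligand, was higher in BLZ945 mice. On the log2 scale it was 10.18 at the lowest, 10.79 at the median and 11.31 at the highest in BLZ945 mice, against 9.87, 10.32 and 10.51 in Vehicle mice. In 7 of 8 BLZ945 mice it lay above every Vehicle mouse, and the groups overlapped through BLZ945 6 alone, at 10.18. The means were 10.83 ± 0.37 in BLZ945 and 10.26 ± 0.22 in Vehicle (SD, n = 8 each), a log2 difference of 0.57 (SE 0.15) or 1.49-fold. Leaving out each mouse in turn gave 0.50 to 0.67. Cd48 had 1 probe set, so no other measurement of it was at hand on these arrays.

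Cd244a, the receptor of CD48, was lower in BLZ945 mice, on both of its probe sets. Its first probe set, 1449991_at, was 6.29 at the lowest, 6.55 at the median and 7.23 at the highest in BLZ945 mice, against 7.51, 7.95 and 8.74 in Vehicle mice. Every BLZ945 mouse lay below every Vehicle mouse. Groups that did not overlap in this direction were seen in 129 of 12394 genes, or 1.04%, a figure from the contrast that was known when the gene was chosen. The means were 6.62 ± 0.32 in BLZ945 and 8.05 ± 0.40 in Vehicle (SD, n = 8 each). The log2 difference was -1.44 (SE 0.17), so the BLZ945 level was 0.369 times the Vehicle level.

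The second probe set of Cd244a, 1426120_a_at, gave a smaller difference in the same direction. It was 5.34, 5.78 and 6.22 at the lowest, median and highest in BLZ945 mice, against 5.93, 6.52 and 7.12 in Vehicle mice. In 6 of 8 BLZ945 mice it lay below every Vehicle mouse, and the other 2 lay within the Vehicle range. Its log2 difference was -0.81 (SE 0.18), and 0 BLZ945 mice exceeded the Vehicle median. Over the 16 mice the deviations of the probe sets from their agent means had r = 0.729, given as a description of 2 readings of the same RNA.

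**Figure D1:**
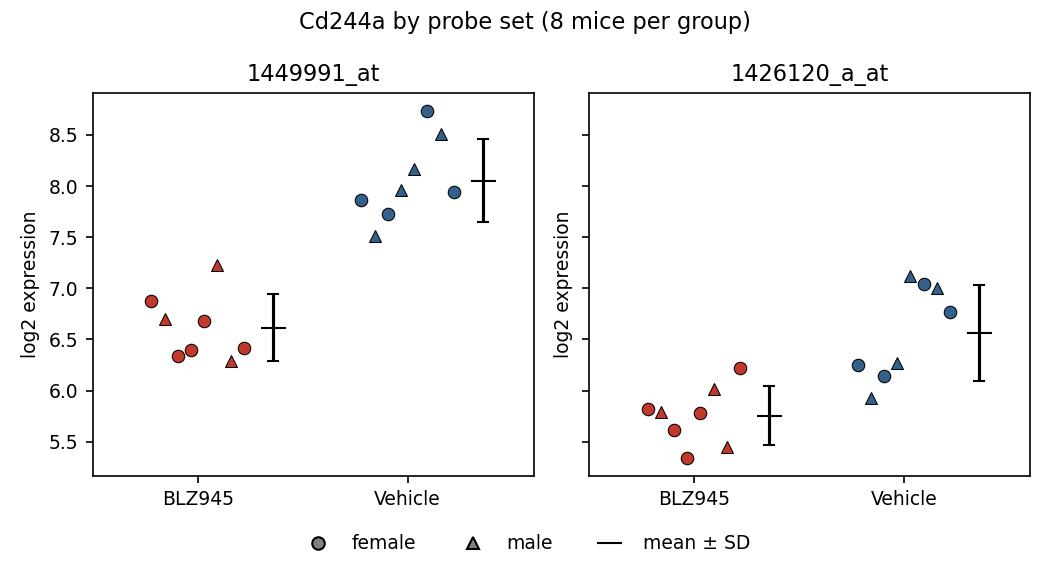
Log2 expression of Cd244a in each mouse on its 2 probe sets, BLZ945 left and Vehicle right, with circles for females, triangles for males and the mean ± SD beside each group (n = 8 each). The groups are apart on 1449991_at (6.29 to 7.23 in BLZ945, 7.51 to 8.74 in Vehicle) and overlap on 1426120_a_at (5.34 to 6.22 in BLZ945, 5.93 to 7.12 in Vehicle).

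Within Vehicle, Cd244a was highest in mice 5, 6 and 7, at 8.17, 8.74 and 8.51. The arrays of these 3 mice also had the widest spread of log2 values of the Vehicle arrays, with SDs of 2.46, 2.47 and 2.49, while the other Vehicle arrays lay between 2.30 and 2.38. Over all arrays the SD was 2.22 to 2.43 in BLZ945 and 2.30 to 2.49 in Vehicle. The same 3 mice had the highest labelled volumes of the 6 Vehicle mice with a value, at 27.3, 21.7 and 20.65. The others lay at 11.9 to 13.3, so within Vehicle array spread and labelled volume cannot be told apart. Without these 3 arrays, an alternative chosen after seeing the data, Cd244a averaged 6.62 ± 0.32 in BLZ945 (n = 8) and 7.80 ± 0.19 in Vehicle (n = 5). The difference was then -1.19, and the groups still did not overlap (as in 1.57% of all genes in this direction), with the highest BLZ945 mouse at 7.23 and the lowest Vehicle mouse at 7.51. Without them Cd48 differed by 0.49, Ly9 by 0.77 and Slamf1 by 0.28. With the array SD as a covariate the Cd244a difference was -1.28.

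Ly9, also called CD229, a receptor that binds itself, was higher in BLZ945 mice. It was 7.69 at the lowest, 8.55 at the median and 8.92 at the highest in BLZ945 mice, against 7.21, 7.68 and 8.42 in Vehicle mice. In 6 of 8 BLZ945 mice it lay above every Vehicle mouse, and 8 of 8 lay above the Vehicle median. BLZ945 4, at 7.69, was the low mouse of its group, and Vehicle 3, at 8.42, was the high one of its own. The means were 8.49 ± 0.38 in BLZ945 and 7.71 ± 0.37 in Vehicle (SD, n = 8 each), a log2 difference of 0.78 (SE 0.18) or 1.72-fold.

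Slamf1, or CD150, a receptor that binds itself and, in mouse macrophages, bacterial membrane proteins, differed little between the agents. Its first probe set, 1425570_at, was 5.47, 6.03 and 6.93 at the lowest, median and highest in BLZ945 mice, against 5.45, 6.07 and 6.18 in Vehicle mice. The log2 difference was 0.18 (SE 0.17), with 5 of 8 BLZ945 mice inside the Vehicle range. The others, 1425571_at and 1425569_a_at, differed by 0.19 (SE 0.11) and 0.18 (SE 0.12). Their deviations over the 16 mice had r = 0.597 and 0.183 with the first probe set and r = -0.00262 with each other, so the 3 probe sets did not order the mice alike. Without BLZ945 6, the highest mouse, the first probe set differed by 0.07. The 2 other probe sets were dim, with means of 4.45 and 4.01 in BLZ945 and of 4.25 and 3.83 in Vehicle, where the 3099 genes with the lowest means had a median difference of 0.14. Over all 12394 genes the median difference was 0.07.

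**Figure D2:**
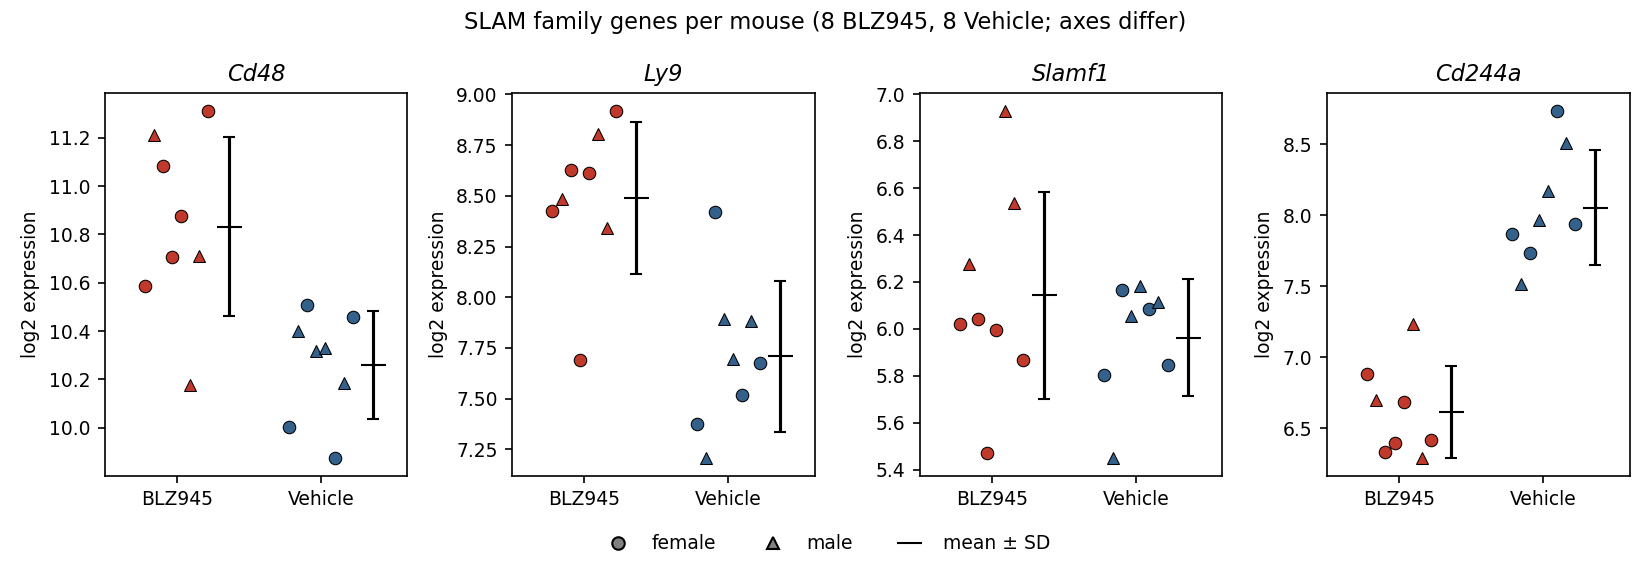
Log2 expression of Cd48, Ly9, Slamf1 and Cd244a (first probe set) in each mouse, BLZ945 left and Vehicle right, with circles for females, triangles for males and the mean ± SD beside each group (n = 8 each). The axes differ between panels. Cd48 and Ly9 were higher in BLZ945 with some overlap, Slamf1 overlapped widely and Cd244a was lower with none.

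Inside the age that held both agents, 11.29 weeks with 4 mice each, Cd244a, Ly9 and Cd48 differed in the same direction as over all mice. Of the 4 Vehicle mice of this age, 3 were those with the widest arrays. Cd244a averaged 6.79 ± 0.37 in BLZ945 and 8.34 ± 0.34 in Vehicle, a difference of -1.56 with no overlap, where 5.63% of all genes had every BLZ945 mouse of this age below every Vehicle mouse. Ly9 averaged 8.59 ± 0.17 in BLZ945 and 7.75 ± 0.18 in Vehicle, a difference of 0.84 with no overlap, where 4.05% of all genes had every BLZ945 mouse above. Over all mice the Ly9 groups overlapped. Cd48 averaged 10.76 ± 0.48 in BLZ945 and 10.18 ± 0.21 in Vehicle, a difference of 0.59, and its groups overlapped. Slamf1 averaged 6.32 ± 0.42 in BLZ945 and 6.11 ± 0.05 in Vehicle.

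Cd244a was lower in BLZ945 in either sex without overlap, by -1.53 in females (5 BLZ945, 4 Vehicle) and by -1.30 in males (3 BLZ945, 4 Vehicle). Of all genes, 4.10% lay wholly lower in females and 6.19% in males. Cd48 differed by 0.70 in females, without overlap, and by 0.39 in males, with overlap. Of all genes, 3.58% lay wholly higher in females and 3.64% in males. Ly9 differed by 0.71 in females and by 0.87 in males, and only the males did not overlap. Slamf1 averaged 5.88 ± 0.24 in BLZ945 females and 5.98 ± 0.18 in Vehicle females, a difference of -0.10. In males it averaged 6.58 ± 0.33 in BLZ945 and 5.95 ± 0.34 in Vehicle, a difference of 0.63 without overlap.

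Whether these differences depended on sex was asked with the interaction of agent and sex in limma, adjusted over 12394 genes. Of the 4 genes 0 passed at an adjusted p under 0.05. Limma called 0 of all genes (0%) in this fit, and 414 had an unadjusted p under 0.05. The interaction of Slamf1 was -0.73 (SE 0.28, adjusted p = 0.983), that of Cd48 was 0.31 (SE 0.31, adjusted p = 0.983), that of Cd244a was -0.23 (SE 0.37, adjusted p = 0.985) and that of Ly9 was -0.17 (SE 0.38, adjusted p = 0.988).

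Sex itself, age within BLZ945 and tumour volume within BLZ945 had no part in choosing the genes, and 0 of the 4 genes passed in any of these fits. Females minus males with the agent as covariate, where limma called 0.0323% of genes, gave -0.33 for Slamf1 (SE 0.16, adjusted p = 0.512) and -0.08 for Cd244a (SE 0.18, adjusted p = 0.863). Cd48 differed by 0.05 between the sexes (SE 0.16, adjusted p = 0.896). The BLZ945 mice of 13.14 weeks minus those of 11.29 weeks, where limma called 0.0403% of genes, gave -0.34 for Cd244a (SE 0.20, adjusted p = 0.369), -0.35 for Slamf1 (SE 0.26, adjusted p = 0.476), -0.20 for Ly9 (SE 0.24, adjusted p = 0.664) and 0.14 for Cd48 (SE 0.24, adjusted p = 0.774). Per doubling of the labelled volume within BLZ945, a value of unsettled unit and time, Cd48 had a slope of 0.42 (SE 0.20, adjusted p = 0.711), Ly9 of 0.33 (SE 0.22, adjusted p = 0.749) and Cd244a of -0.22 (SE 0.21, adjusted p = 0.796). Limma called 0% of genes for the volume slope, with 846 at an unadjusted p under 0.05. The same unadjusted count in limma was 1214 of 12394 genes for sex and 2312 for age within BLZ945.

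Among mice of the same agent the ligand and the receptor were compared next, a relation that the agent contrast does not fix. Cd48 and Cd244a had r = -0.636 within BLZ945 (rho = -0.381, n = 8, exact two-sided permutation p = 0.0903 and 0.36). Within Vehicle they had r = -0.673 (rho = -0.643, n = 8, exact two-sided permutation p = 0.0664 and 0.0962). Over the 12 relations computed, 6 gene pairs in each agent, the adjusted exact permutation p of both Pearson values was 0.358, so neither passed. Without the 2 mice farthest from the Cd48 median, r was -0.0735 in BLZ945 and -0.787 in Vehicle. The 2 BLZ945 mice left out were BLZ945 6 and BLZ945 8. BLZ945 6 had the lowest Cd48 and the highest Cd244a of its group, and BLZ945 8 the highest Cd48. They were left out together, so the part of each alone was not tested. Vehicle 5, 6 and 7, with the highest Cd244a of their group, also had the widest Vehicle arrays. Their part in the Vehicle r was not tested.

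The relation with the smallest unadjusted p was that of Slamf1 and Ly9 within Vehicle, with r = 0.729 (rho = 0.714, n = 8, exact two-sided permutation p = 0.0451 and 0.0576). Its adjusted exact permutation p was 0.358, and r was 0.377 without the 2 mice farthest from the Slamf1 median. Cd48 and Ly9, both higher in BLZ945, had r = 0.18 within BLZ945 and r = 0.438 within Vehicle (n = 8 each, adjusted exact permutation p = 0.805 and 0.422).

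**Figure D3:**
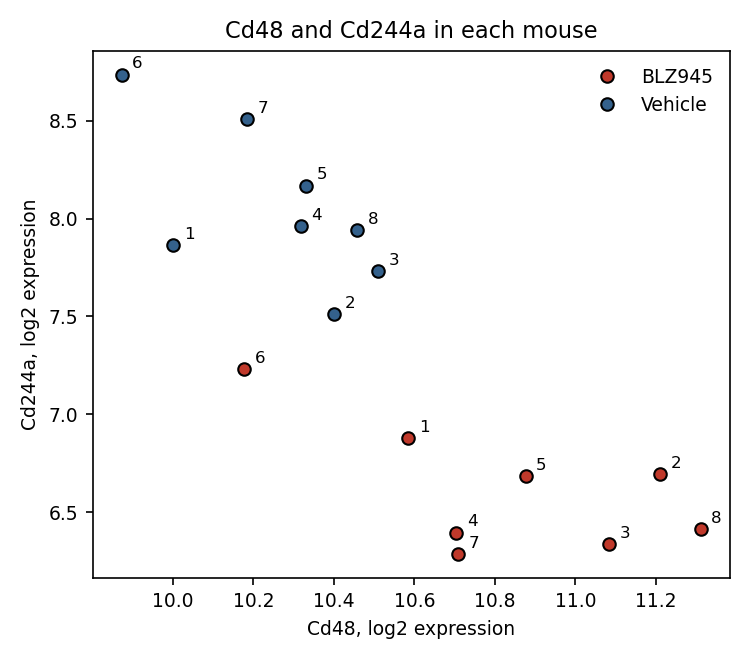
Log2 expression of Cd48 (horizontal) and Cd244a (vertical) in each mouse, numbered by replicate, with BLZ945 in red and Vehicle in blue. The groups are apart on the Cd244a axis. Within the groups r was -0.636 in BLZ945 and -0.673 in Vehicle, neither passing the adjusted test. Without the 2 mice farthest from the Cd48 median r was -0.0735 in BLZ945 and -0.787 in Vehicle. Vehicle 5, 6 and 7, the highest Vehicle mice on the Cd244a axis, had the widest Vehicle arrays.

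The 4 genes lie together on chromosome 1, in the RefSeq order Cd244a, Ly9, Slamf7, Cd48, Slamf1, with Cd84 and Slamf6 next. In this order the difference was -1.44 for Cd244a and 0.78 for its direct neighbour Ly9. Slamf7, between Ly9 and Cd48, differed by 0.10 (SE 0.49, adjusted p = 0.92). Cd48 differed by 0.57 and Slamf1 by 0.18. Of the genes on the side of Cd244a, Itln1, a lectin gene, differed by 0.31 (SE 0.15, adjusted p = 0.246), F11r, which encodes a junction adhesion molecule, by -0.06 (adjusted p = 0.84) and the transcription factor gene Usf1 by 0.05 (adjusted p = 0.832). On the far side Vangl2, a planar polarity gene, differed by 0.05 (adjusted p = 0.866), the transcription factor gene Nhlh1 by 0.26 (adjusted p = 0.333) and Ncstn, a gamma-secretase subunit, by -0.19 (adjusted p = 0.47). Neighbours thus stood on both sides of 0. Of the 9 measured neighbours outside the 4 genes, which include Cd84 and Slamf6, 0 passed.

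**Figure D4:**
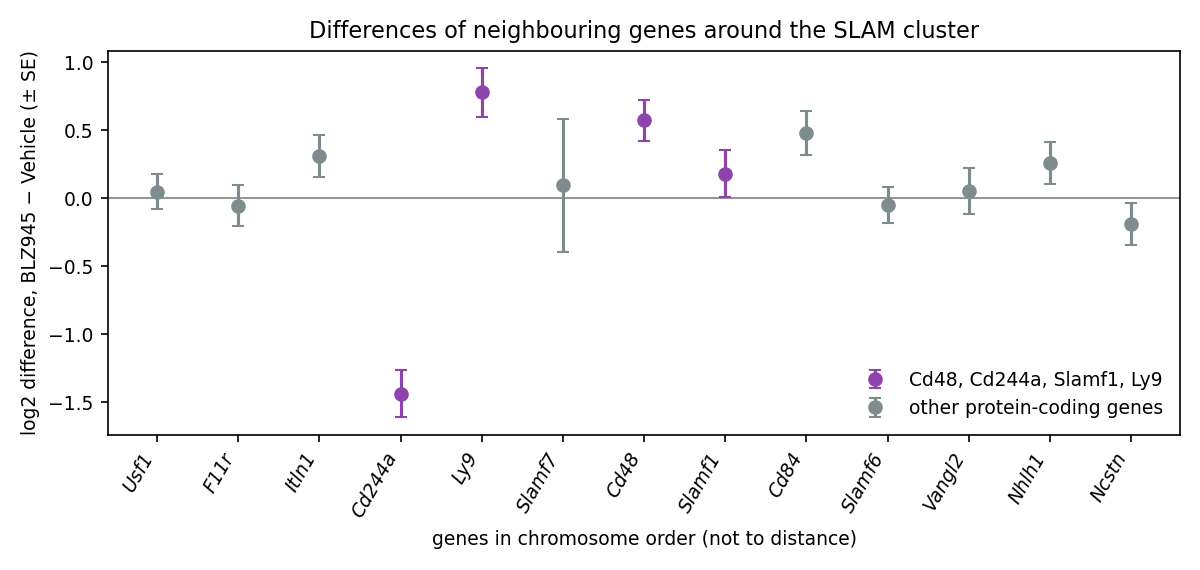
Log2 difference, BLZ945 minus Vehicle, with its SE, for the measured genes around the SLAM cluster in chromosome order, with Cd48, Cd244a, Slamf1 and Ly9 in purple. Cd244a at -1.44 and its neighbour Ly9 at 0.78 lie farthest from 0, on opposite sides.

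Of the 5 other SLAM family genes, all measured, 0 rose and 0 fell at an adjusted p under 0.05 in limma. Over all 12394 genes 2.60% were called higher and 5.34% lower. With quantile normalization repeated, 57.3% of called genes were lower in place of 67.3%, and with array SD as covariate 47.3%. The median difference of the 5 genes was 0.10, against 0.07 over all genes. Slamf8, a receptor of macrophages, was 7.31 to 10.66 in BLZ945 and 5.97 to 9.48 in Vehicle, with means of 8.68 ± 1.04 and 7.19 ± 1.11 (SD, n = 8 each). Its difference of 1.49 (SE 0.47) had an adjusted p of 0.0586, and it passed without Vehicle 2 (adjusted p = 0.00797) or BLZ945 4 (adjusted p = 0.0362). It also passed with sex (adjusted p = 0.0172) or array SD (0.035) as covariate, with quantile normalization repeated (0.0441) and with dim genes left out (0.0447). In the mice of 11.29 weeks alone it differed by 2.28 (adjusted p = 0.0613), and without the 3 widest Vehicle arrays by 1.42 (adjusted p = 0.169). Slamf8 passed in 6 of the 28 alternatives run, and in 2 of the 16 that left out 1 mouse. Cd84, which binds itself and is found on macrophages and platelets, averaged 11.50 ± 0.31 in BLZ945 and 11.02 ± 0.36 in Vehicle. Its difference of 0.48 (SE 0.16) had an adjusted p of 0.0799, and it passed without Vehicle 7 (adjusted p = 0.0296) or BLZ945 1 (adjusted p = 0.0338). It also passed without the 3 widest Vehicle arrays (adjusted p = 0.0137), with array SD as covariate (0.00208) and with quantile normalization repeated (0.0499). In the mice of 11.29 weeks alone the Cd84 difference was 0.27 (adjusted p = 0.614), the same as with age cohort as covariate (adjusted p = 0.573). Cd84 passed in 5 of the 28 alternatives run, and in 2 of the 16 that left out 1 mouse.

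Slamf9 averaged 9.29 ± 0.91 in BLZ945 and 9.92 ± 0.42 in Vehicle, a difference of -0.63 (SE 0.32, adjusted p = 0.247). Without BLZ945 6, at 7.20, it was -0.33 (adjusted p = 0.283), and it was -0.31 in females and -1.24 in males. Slamf6, a receptor of lymphocytes, averaged 6.47 ± 0.29 in BLZ945 and 6.52 ± 0.23 in Vehicle (adjusted p = 0.835). Slamf7 spread widely inside both groups, at 4.06 to 8.00 in BLZ945 and 4.69 to 7.47 in Vehicle.

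Of 14 adaptors and signalling partners of SLAM receptors 12 were measured, of which 1 rose, 0 fell and 11 did not pass, and their median difference was 0.04. Over all 12394 genes 2.60% were called higher and 5.34% lower, so a count of this size is not particular to this list. Sh3bp2, an adaptor described as binding CD244 in human natural killer cells, rose by 0.55 (SE 0.15, adjusted p = 0.0295), with means of 8.46 ± 0.31 in BLZ945 and 7.90 ± 0.30 in Vehicle (SD, n = 8 each). The adjusted p was 0.0515 to 0.0652 when Vehicle 4, 5, 6, 8 or BLZ945 5, 7, 8 was left out singly, so the call rests on each of these mice. It also ended in the mice of 11.29 weeks (0.41, adjusted p = 0.33), with age cohort as covariate (adjusted p = 0.319), in females (0.147), in males (0.583) and without the 3 widest Vehicle arrays (0.112). Sh2d1a, which encodes SAP, was at the bottom of the scale, at 2.36 to 3.44 in BLZ945 and 2.42 to 2.87 in Vehicle. Sh2d1b1 and Sh2d1b2, adaptor genes of the same list, were not measured, so nothing is said of them. Fyn, the kinase that SAP brings to the receptor, differed by 0.08 (adjusted p = 0.847). The phosphatase genes that bind the same tails gave 0.01 for Ptpn6, which encodes SHP-1 (adjusted p = 0.979), -0.21 for Ptpn11, which encodes SHP-2 (adjusted p = 0.296), and -0.24 for Inpp5d, which encodes SHIP-1 (adjusted p = 0.377).

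Further along the pathway, the exchange factor gene Vav1 differed by -0.22 (adjusted p = 0.319), the phospholipase genes Plcg1 and Plcg2 by 0.29 (adjusted p = 0.169) and -0.18 (adjusted p = 0.335), the scaffold gene Lat by 0.41 (adjusted p = 0.183), and the kinase genes Csk and Prkcq by -0.14 (adjusted p = 0.637) and 0.47 (adjusted p = 0.252). Of the 4 genes for CD2 and its binding proteins 0 rose and 0 fell, with a median difference of -0.18. Cd2, the other receptor of CD48, was low on the scale in either group, at 3.32 to 5.08 in BLZ945 and 3.16 to 4.12 in Vehicle (difference 0.59, SE 0.22, adjusted p = 0.12). Cd2ap differed by -0.31 (adjusted p = 0.194), Pstpip1 by -0.38 (adjusted p = 0.496) and Cd2bp2 by -0.04 (adjusted p = 0.81).

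**Figure D5:**
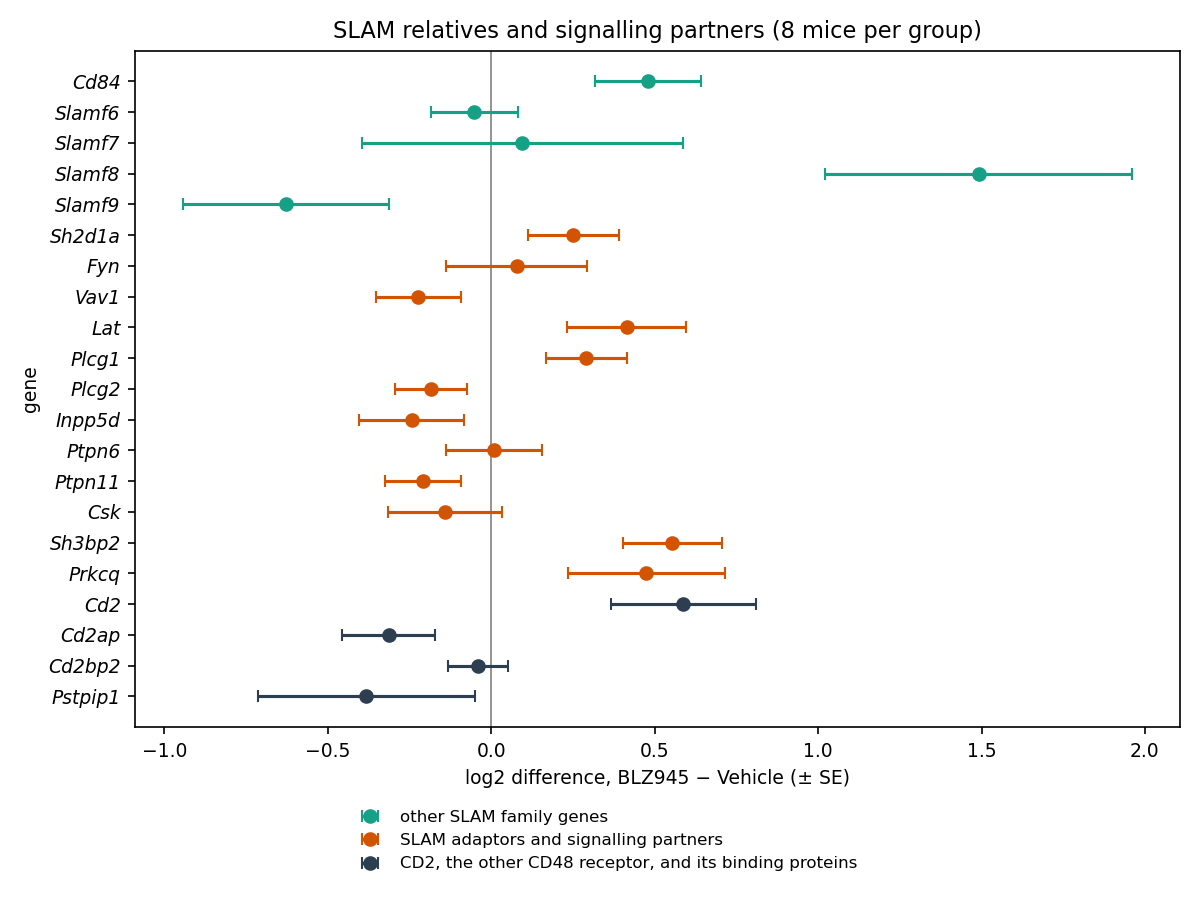
Log2 difference, BLZ945 minus Vehicle, with its SE, for the other SLAM family genes, their adaptors and signalling partners, and CD2 with its binding proteins (n = 8 mice per group). Sh3bp2 at 0.55 was the 1 gene that passed, and Slamf8 at 1.49 had the widest difference with an SE of 0.47.

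Genes whose levels followed those of the pair were ranked by Pearson r over the 16 mice, on deviations from the agent means, so that the agent difference itself plays no part. All values of a mouse share 1 array, and the genes were picked for the highest r, so no p is given. Nearest to Cd48 were Gab3, an adaptor of growth factor receptors in macrophages (r = 0.839), Bmpr2, a receptor for bone morphogenetic proteins (0.775), BC028528 (0.773), Tyrobp, which encodes the signalling adaptor DAP12 (0.769), and Saysd1 (0.757). Their own differences between agents ran from -0.33 for Gab3 to 0.37 for Bmpr2, and 0 of the 5 passed (adjusted p 0.221 to 0.332). Nearest to Cd244a were Lgalsl, a galectin-like gene (r = 0.892), the integrin gene Itgb1 (0.875), the helicase gene Recql (0.874), BC005537 (0.86) and the cytokine gene Il6 (0.857). Of these 0 passed between agents (adjusted p 0.145 to 0.763). For Itgb1, r was 0.72 within BLZ945 and 0.979 within Vehicle. Over the 5 genes nearest to Cd244a, r was 0.705 to 0.832 within BLZ945 and 0.917 to 0.979 within Vehicle. The Vehicle group holds the 3 widest Vehicle arrays, those of the mice with its highest Cd244a. The part of these arrays in the r values was not tested.

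In these bulk samples fewer cells of a type and less RNA per cell cannot be told apart. Beside the counts of called markers below, 2.60% of all 12394 genes were called higher and 5.34% lower. Macrophage markers were high in either group, with Csf1r at 13.55 to 13.84 in BLZ945 and 13.31 to 13.73 in Vehicle, while Itgam, the gene of the sorting marker CD11b, was lower by a log2 difference of -1.17 (adjusted p = 0.00807). The mean of 11 T cell markers was 4.50 to 4.95 in BLZ945 and 4.29 to 4.67 in Vehicle, and 1 of 11 rose, Zap70 (0.68, adjusted p = 0.0472). The other probe set of Zap70 differed by 0.33. Thy1, the second brightest of the list, differed the other way, by -0.71 (adjusted p = 0.196), and the other 10 had differences above 0. Cd3e and Cd3d, which define T cells, averaged 5.20 and 4.55 in BLZ945 and 4.87 and 4.05 in Vehicle (adjusted p = 0.24 and 0.109). The mean of 10 natural killer cell markers was 4.44 to 6.72 in BLZ945 and 4.25 to 5.59 in Vehicle, with 0 of 10 called. The brightest of them, Gzma, differed by 1.83 (adjusted p = 0.0506) and the next, Klrd1, by -0.44 (adjusted p = 0.616). The difference was above 0 for 8 of the 10 and below 0 for Klrd1 and Klrk1 (-0.65, adjusted p = 0.404). The natural killer list mean of 6.72 was that of BLZ945 6, which had the lowest Cd48 and the highest Cd244a of its group. In the other BLZ945 mice this list mean was 4.44 to 5.57. BLZ945 6 also had the highest BLZ945 list means of monocyte markers (8.49) and of mast cell, basophil and eosinophil markers (5.17). Its microglia list mean (9.48) was the lowest of the BLZ945 mice. The medians of the arrays were 5.77 to 5.84 in BLZ945 and 5.74 to 5.87 in Vehicle, and detection calls were not used here.

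The mean of 9 mast cell, basophil and eosinophil markers was 4.22 to 5.17 in BLZ945 and 3.58 to 4.23 in Vehicle, and 1 of 9 rose, the mast cell protease gene Cpa3 (1.12, adjusted p = 0.0153). All 9 had differences above 0. Of 6 monocyte markers 1 fell, the chemokine receptor gene Ccr2 (-1.65, adjusted p = 0.0484), and the list mean was 6.28 to 8.49 in BLZ945 and 8.00 to 10.16 in Vehicle. The 3 probe sets of Ccr2 differed by -1.65 to -0.76. All 6 monocyte markers had differences below 0. Of 6 microglia markers 2 fell, Tmem119 (-1.64, adjusted p = 0.000358) and P2ry12 (-1.35, adjusted p = 0.00699), with a list mean of 9.48 to 10.80 in BLZ945 and 10.32 to 11.23 in Vehicle. Differences of microglia markers were below 0 for 5 and above 0 for 1. Of 9 glioma and oligodendrocyte precursor markers 5 fell, among them Pdgfra (-2.71, adjusted p = 0.000441). The other probe set of Pdgfra differed by -0.61. Of the 9, 7 had differences below 0 and 2 above, among these Cspg4, the second brightest (0.44, adjusted p = 0.424). B cell, neutrophil, dendritic cell and endothelial markers had 0 calls of 7, 8, 6 and 7. The part of these cell types in the values of Cd48, Cd244a and Ly9 was not tested.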

How the data were processed

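The authors deposited log2 values, 1 per probe set and array, from software listed as GCOS 1.4 and RMA, per the submitters' processing notes. The RMA version and genome build were not given in the sources used here. The effect of RMA is to compress differences of dim probe sets. Of 22690 probe sets, 20393 had 1 symbol, 691 several and 1606 none. Each of 12394 genes was tested on its probe set with the highest mean, with no filter on dim values, in limma 3.58.1 (R 4.3.3), with Benjamini-Hochberg adjustment over all genes and a threshold of 0.05. Calculations were tested on simulated data. The highest correlation between 2 arrays was 0.991, so each array counted once. Nothing in the labels says whether mice shared a litter or a sorting day. The number of arrays limits the precision.

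The 4 genes, the 14 lists and the rules were chosen with earlier results of these data known. The genes named are the 4 and their probe sets, all measured genes of the 3 pathway lists, neighbours in the RefSeq order (up to 5 on either side), the 5 genes nearest to Cd48 and to Cd244a, and, of each cell type list, called genes and the 2 brightest, of which some are printed. Cd3e, Cd3d and Klrk1 were named after their values were seen, and Sh2d1b1 and Sh2d1b2 are named as listed genes without a measurement. Exact permutation tests used every pairing of 8 mice. Alternatives covered probe sets, dim genes, normalization, covariates, subsets of mice, a replicate block, leaving out each mouse and, added after seeing the data, leaving out 3 Vehicle arrays.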

Additional observations from a re-analysis of the deposited data

Results flagged for a closer look

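Over 56 groups of 8 mice examined, 3 held a mouse set apart from the rest of its group by more than Dixon's critical value, and chance flags about 1 in 20 groups. Ly9 was 7.69 in BLZ945 4, with the nearest BLZ945 mouse at 8.34. Slamf9 was 7.20 in BLZ945 6, with the nearest BLZ945 mouse at 9.11. Vav1 was 7.71 in BLZ945 4, with the nearest BLZ945 mouse at 8.24.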

How the results depend on the processing

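The differences of Cd48 (0.39 to 0.70), Ly9 (0.71 to 0.92) and Cd244a (-1.56 to -0.81) kept their direction under every alternative run. The lowest Cd244a difference in size, -0.81, was that of its second probe set. Slamf1 differed by -0.10 in females alone and by 0.63 in males alone, and by 0.07 to 0.28 leaving out each mouse. Of all genes, 984 were called between agents, 1644 with array SD as covariate, 215 with age cohort as covariate, 89 in the mice of 11.29 weeks, 393 in females and 2 in males. Of the 5 other SLAM family genes 0 were called, but 1 with dim genes left out, 2 with quantile normalization repeated, 2 with array SD as covariate, 1 with sex as covariate, 1 without the 3 widest Vehicle arrays, and 0 to 1 leaving out each mouse. Of the adaptors and partners 1 was called, but 0 with age cohort as covariate, in the mice of 11.29 weeks, in females, in males, with the replicate block and without the 3 widest Vehicle arrays, and 0 to 1 leaving out each mouse. Subsets hold fewer mice, and in the other cases the cause was not tested. For sex, 4 genes were called, 1 with dim genes left out, and 3 to 14 leaving out each mouse (14 without Vehicle 4). For age within BLZ945, 5 were called, 1 with dim genes left out, and 0 to 16 leaving out each mouse (16 without BLZ945 3). The lowest adjusted p of Cd48, Cd244a, Slamf1 or Ly9 in the fits for sex, interaction, age and volume was 0.281 over all alternatives. Replicate numbers did not pair the mice: same-numbered deviations correlated from -0.481 to 0.394, and 2 of 8 mice correlated best with their own number. With the replicate block 873 genes were called, and Sh3bp2 had an adjusted p of 0.0521. Dim probe sets and the number of mice limit what can be detected.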
